A study of Homo sapiens with 8 samples.

Results

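Accessible chromatin was mapped by ATAC-seq in MCF10A, an established human cell line of mammary epithelium that is immortal but forms no tumours. The assay uses a transposase that inserts adapters where nucleosomes leave DNA free. The groups were solvent, placed at time 0 by the labels, and 5 ng/ml TGFβ1 for 6, 24 or 72 h, with 2 replicates each and 8 libraries in all. The 4 deposited peak lists each pool both replicates of a condition, so no difference between conditions has a replicate check and none is given a p-value. The study's methods state a number of reads aimed at per sample, but the lists carry no read totals, so the depth reached by each condition is not known here.

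The regions described here are promoter regions that were accessible throughout the TGFβ1 course and not in solvent. All peaks that shared 1 bp or more across the 4 lists were merged, and a region was kept when it held a peak at 6, 24 and 72 h, held none in solvent, and lay within 3 kb of a GENCODE transcription start site (TSS). This gave 4080 regions of 126658 merged regions. The number rests on the limits of the lists, of which solvent was the shortest (86209 peaks against 107656 to 118433), and it was 1041 with lists of equal length and 967 with an AUC, the deposited measure of peak strength, of 400 or more in the TGFβ1 lists. They made up 9.37% of the 43524 promoter regions, that is, of all merged regions within 3 kb of a TSS. Beyond 3 kb the same pattern was found in 14005 of 83134 regions, or 16.8%. The regions were thus chosen by the presence of a peak in each list and by distance to a TSS, and neither is a finding. They are set beside 31968 promoter regions with a peak in all 4 lists, called constitutive promoters below, and beside the 14005 distal regions of the same pattern.

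A core promoter is the stretch around a TSS on which RNA polymerase II assembles. Promoters of widely expressed human genes tend to lie in CpG islands, which are rich in G and C and in sites for SP/KLF and ETS factors, and stay open in most cells. Regulated elements outside them are usually poorer in CpG and in epithelial cells often carry the site of AP-1, a dimer of JUN and FOS proteins. TGFβ1 signals through receptor kinases to SMAD proteins, which bind DNA together with such partners. Many genes have several start sites, and transcripts from an alternative TSS can differ in their first exons. The main TSS of a gene was taken as the start of its canonical Ensembl transcript, and a start within 100 bp of it counted as main.

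Most of these regions lay near a start site and not on it. A TSS lay inside 633 of the 4080 regions, or 15.5% (95% CI 14.4 to 16.7), against 52.4% of constitutive promoters (51.8 to 52.9). A further 1275 regions lay 1 to 1000 bp from the nearest TSS and 2172 lay farther away, up to 3 kb. Constitutive promoters were wider, with a median of 736 bp against 278 bp, which favours a TSS inside them. The rule also leaves out regions that touch a solvent peak, so a TSS under such a peak cannot lie inside a region kept here. Regions upstream and downstream of the TSS were similarly frequent, at 40.8% and 43.7%. Summits fell in introns for 62.6%, in exons for 19.3% and between genes for 18.1%. Intervals for shares are Wilson intervals, those for differences Newcombe intervals, and those for medians exact order-statistic intervals. They cover counting error only, because regions are not replicates of a condition.

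**Figure D1:**
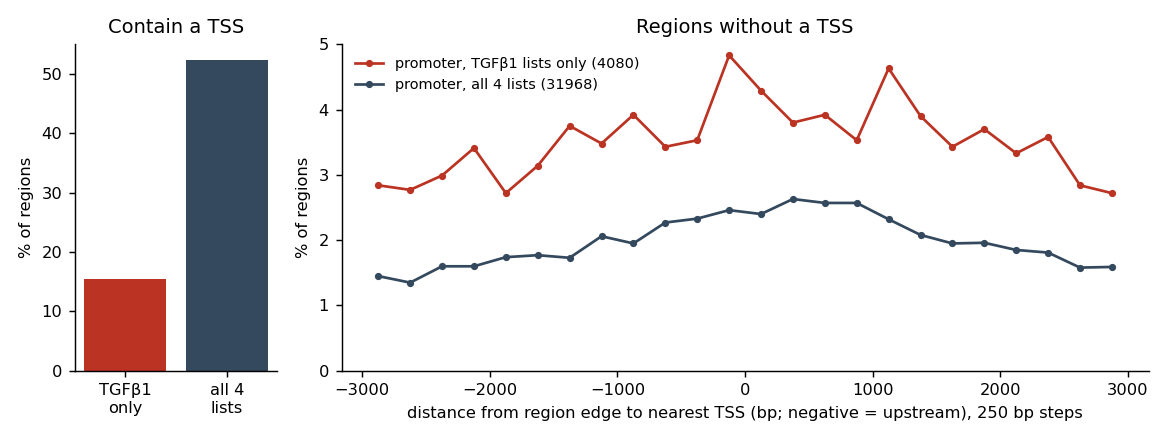
Left, percentage of regions that contain a TSS; right, percentage of all regions of the group in 250 bp steps of distance from the region's edge to the nearest TSS, negative upstream. Red, promoter regions with peaks in the TGFβ1 lists only (4080); blue, constitutive promoters (31968). The red bar stands at 15.5% and the blue bar at 52.4%, and no red step outside the TSS reaches 5%. Median widths of the regions were 278 bp (red) and 736 bp (blue).

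Cell identity was checked on the main TSS of fixed markers. In solvent, 7 of 8 markers listed for basal mammary epithelium (KRT5, KRT14, KRT17, ITGB4, LAMB3, EPCAM and CDH1) had a peak within 1 kb. EPCAM and CDH1 among them mark epithelial cells in general and not basal ones. The exception was TP63, whose canonical start lay 9112 bp from the nearest solvent peak. None of 5 markers of other cell types (PTPRC, PECAM1, MYOD1, ALB and GFAP) had one within 1 kb, but within the 3 kb used for promoters GFAP (1329 bp) and PTPRC (2649 bp) did. Absence of a peak is not absence of signal, since the lists hold only peaks above the authors' limits.

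Sequences at the summits of chosen regions follow as examples and not as typical windows. Each is the 201 bp centred on the summit of the strongest 72 h peak, read from the plus strand of GRCh38, and all lie outside annotated UTRs. The first group was chosen because each holds the AP-1 site TGACTCA or its reverse complement, in capitals, as 35.8% of the 4080 regions did. HECW2-AS1 (a lncRNA), FAP (fibroblast activation protein, a cell-surface protease) and LCE3A (a late cornified envelope protein of the epidermis) are regions over a main TSS. THBS2 (thrombospondin 2, a matrix protein) is a region over an alternative TSS. MMP9 (a secreted gelatinase) is a region 299 bp upstream of the main TSS, and PALLD (palladin, an actin-bundling protein) one that ends 1 bp from an alternative TSS. KSR1 (a scaffold of the RAS to MAP kinase pathway) and TCF4 (an E-protein transcription factor) lie just inside alternative transcripts.
HECW2-AS1, chr2:196260242-196260442: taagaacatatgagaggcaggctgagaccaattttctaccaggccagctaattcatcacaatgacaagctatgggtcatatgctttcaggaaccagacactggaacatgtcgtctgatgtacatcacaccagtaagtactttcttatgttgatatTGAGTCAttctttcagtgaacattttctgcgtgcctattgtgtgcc
FAP, chr2:162243482-162243682: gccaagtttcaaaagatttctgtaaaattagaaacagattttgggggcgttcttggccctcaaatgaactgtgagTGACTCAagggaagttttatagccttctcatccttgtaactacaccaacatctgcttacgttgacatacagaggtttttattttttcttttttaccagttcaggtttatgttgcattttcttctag
LCE3A, chr1:152622877-152623077: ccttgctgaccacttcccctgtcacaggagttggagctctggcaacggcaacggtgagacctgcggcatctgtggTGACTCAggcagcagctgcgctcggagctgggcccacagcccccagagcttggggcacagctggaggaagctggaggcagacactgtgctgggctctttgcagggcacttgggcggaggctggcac
THBS2, chr6:169240656-169240856: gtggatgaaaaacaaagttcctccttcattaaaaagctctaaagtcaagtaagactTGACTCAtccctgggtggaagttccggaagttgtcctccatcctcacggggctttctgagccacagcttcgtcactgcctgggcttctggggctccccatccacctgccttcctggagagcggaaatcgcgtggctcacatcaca
MMP9, chr20:46008227-46008427: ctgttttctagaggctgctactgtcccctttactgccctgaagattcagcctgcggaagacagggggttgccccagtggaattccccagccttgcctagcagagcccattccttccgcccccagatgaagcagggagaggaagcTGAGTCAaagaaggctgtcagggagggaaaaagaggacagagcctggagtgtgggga
PALLD, chr4:168711912-168712112: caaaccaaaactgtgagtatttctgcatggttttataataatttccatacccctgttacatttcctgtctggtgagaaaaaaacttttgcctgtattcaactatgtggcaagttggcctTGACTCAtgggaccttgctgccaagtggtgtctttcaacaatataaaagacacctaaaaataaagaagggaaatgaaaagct
KSR1, chr17:27586191-27586391: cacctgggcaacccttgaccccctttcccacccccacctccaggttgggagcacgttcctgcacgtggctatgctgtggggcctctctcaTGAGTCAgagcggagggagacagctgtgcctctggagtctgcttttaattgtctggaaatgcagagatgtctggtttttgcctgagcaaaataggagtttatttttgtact
TCF4, chr18:55510031-55510231: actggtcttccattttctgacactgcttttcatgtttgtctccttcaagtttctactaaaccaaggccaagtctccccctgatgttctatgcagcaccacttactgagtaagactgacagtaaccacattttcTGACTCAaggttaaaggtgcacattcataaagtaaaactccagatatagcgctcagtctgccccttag

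The next windows hold none of these. In RGS3 (a regulator of G-protein signalling) and LAMB3 (the β3 chain of laminin-332, a basement-membrane protein), capitals mark the SMAD palindrome GTCTAGAC. It was found in only 0.613% of the 4080 regions. In CRCT1 (a cysteine-rich protein of the epidermal differentiation cluster) capitals mark the letters TATAAA, here within a region over the main TSS. The window at SMAD6 (an inhibitory SMAD) has nothing in capitals and is shown because it is one of the few with the composition of a CpG island, with 32 CG dinucleotides, where LAMB3 and RGS3 have 0.
RGS3, chr9:113520341-113520541: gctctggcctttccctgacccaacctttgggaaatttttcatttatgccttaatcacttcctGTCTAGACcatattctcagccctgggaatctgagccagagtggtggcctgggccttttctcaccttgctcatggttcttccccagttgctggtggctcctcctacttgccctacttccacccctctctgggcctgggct
LAMB3, chr1:209648503-209648703: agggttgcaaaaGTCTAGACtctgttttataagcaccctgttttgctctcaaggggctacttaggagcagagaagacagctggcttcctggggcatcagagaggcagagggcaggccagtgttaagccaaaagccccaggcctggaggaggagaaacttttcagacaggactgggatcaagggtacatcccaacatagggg
CRCT1, chr1:152514260-152514460: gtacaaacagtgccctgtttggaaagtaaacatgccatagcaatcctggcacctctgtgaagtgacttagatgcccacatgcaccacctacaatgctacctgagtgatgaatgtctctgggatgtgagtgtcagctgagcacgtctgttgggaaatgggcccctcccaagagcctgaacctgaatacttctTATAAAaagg
SMAD6, chr15:66703701-66703901: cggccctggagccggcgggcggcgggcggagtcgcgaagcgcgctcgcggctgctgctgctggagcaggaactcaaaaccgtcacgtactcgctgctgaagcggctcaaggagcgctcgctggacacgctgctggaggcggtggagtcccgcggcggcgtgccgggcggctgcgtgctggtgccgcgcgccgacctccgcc

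Taken over all strengths, these regions stood much closer in base composition to distal elements than to constitutive promoters. The median GC content of the 201 bp windows was 47.3% (95% CI 46.8 to 47.8), against 58.2% (57.7 to 58.2) in constitutive promoters and 44.3% (44.3 to 44.8) in distal regions of the same pattern. The median ratio of observed to expected CpG was 0.204, against 0.435 and 0.162. GC of 50% or more together with a CpG ratio of 0.6 or more, a common reading of a CpG island, was met by 263 regions, or 6.45%, against 39.3% of constitutive promoters and 0.828% of distal regions. The 633 regions that contain a TSS had a median GC of 50.7%, against 65.7% in constitutive promoters that contain one. Among regions without a TSS the gap was smaller. The 3447 such regions had a median GC of 46.8%, against 50.7% in constitutive promoters and 44.3% in distal regions. Their median CpG ratio was 0.196, against 0.242 and 0.162. TGIF2 (a co-repressor of SMADs), whose main TSS lay inside its region, was at the upper end with 79.1%.

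Peak strength moved with composition. The AUC of a peak, the area under its significance curve above the limit of the peak caller, grows with depth and width, and 2041 of the 4080 regions had an AUC under 400 at 72 h, against 2328 of the 31968 constitutive promoters, or 7.28%. Among regions with an AUC of 200 to 300 at 72 h, the median GC was 49.3% here and 49.8% in constitutive promoters, and a TSS lay inside 15.5% and 17.9%, a difference of -2.38 points (95% CI -5.61 to 0.796). With an AUC of 1000 or more the values parted, with 46.3% and 61.7% GC and with a TSS in 20.8% and 66.6%. Weak constitutive promoters thus had a GC content and a share of TSS-containing regions near those of the weak regions described here, and the gap was wider among strong ones. Distal regions of the same pattern had a median GC of 45.3% at 200 to 300 and 44.8% at 1000 or more. In GC, the weakest regions here were therefore nearer to constitutive promoters than to distal regions. At 300 to 400 the medians were 48.3% here, 51.7% in constitutive promoters and 44.8% in distal regions. These strength steps were chosen after the data had been seen.

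Of the 12 motifs searched, the AP-1 site had the largest excess over constitutive promoters in percentage points. TGACTCA, which reads TGAGTCA on the other strand, lay within 100 bp of the summit in 1460 regions, or 35.8% (34.3 to 37.3), against 20.5% of constitutive promoters, 22.4% of all promoter regions and 32.4% of all merged regions. The difference from constitutive promoters was 15.3 points (95% CI 13.8 to 16.9). Distal regions of the same pattern had it in 41.4% (difference -5.62 points, -7.29 to -3.92).

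Composition and position both bear on this motif, and the excess was measured within classes of each. Where GC was 40 to 50%, AP-1 was found in 39.4% here and 36.5% of constitutive promoters. Where GC was 60 to 70%, the shares were 20.1% and 10.0%, a difference of 10.0 points (5.90 to 14.8). At 30 to 40% GC the shares, 42.3% and 42.1%, were not distinguishable (difference 0.298 points, -4.07 to 4.72), nor were those at 70 to 80% GC, 4.63% and 2.31% (difference 2.32 points, -0.349 to 8.09). Among regions that contain a TSS the motif was in 26.2% and 10.5%, a difference of 15.8 points (12.4 to 19.3), and among those that do not, in 37.5% and 31.5%. Within steps of AUC at 72 h the difference was 11.0 points at 200 to 300 (7.95 to 14.1), 22.2 points at 300 to 400 (18.4 to 25.9), 18.6 points at 600 to 1000 (14.8 to 22.4) and 18.9 points at 1000 or more (13.7 to 24.4). It was largest at 400 to 600, with 439 of 997 regions against 582 of 3055 constitutive promoters (95% CI of the difference 21.6 to 28.4 points), so it did not grow steadily with AUC. The AP-1 share differed beyond counting error in all 5 steps of AUC.

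**Figure D2:**
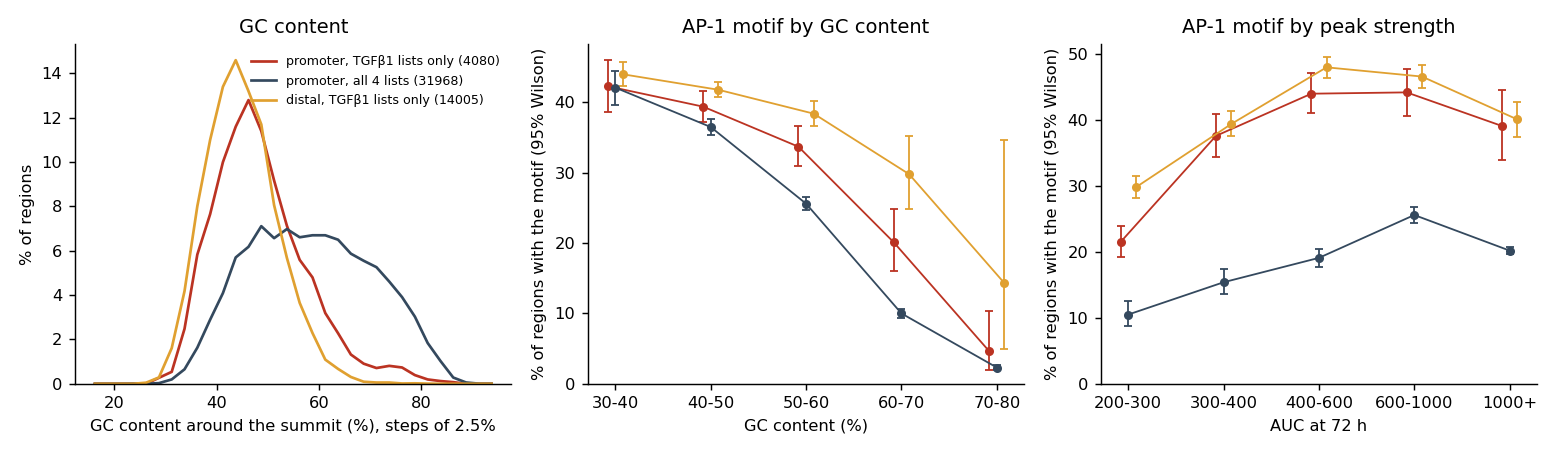
Left, distribution of GC content in the 201 bp at the summit in steps of 2.5%; centre and right, percentage of regions with the AP-1 site by GC content and by AUC at 72 h, with 95% Wilson intervals. Red, promoter regions with peaks in the TGFβ1 lists only; blue, constitutive promoters; orange, distal regions of the same pattern. The red GC curve lies near the orange one (medians 47.3% and 44.3%, blue 58.2%), and in the right panel the red points stay above the blue ones in all 5 AUC steps.

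Compared with other promoter regions, SMAD, TATAAA, TEAD and RUNX letters were also more frequent here, while those of CpG-island promoters were rarer. The CAGACA letters of the SMAD-binding CAGA box were found in 22.5%, against 14.0% of constitutive promoters and 15.6% of all promoter regions. The palindrome GTCTAGAC was found in 25 regions, or 0.613%, against 0.172% and 0.241%. TATAAA was in 9.34% against 4.97% and 6.24%, ACATTCC of TEAD factors in 4.78% against 3.20% and 3.63%, and TGTGGTT of RUNX factors in 6.52% against 4.16% and 4.76%. CCCCGCC of SP/KLF factors was in 4.26% against 21.7% and 17.4%, and CCGGAAG of ETS factors in 1.57% against 6.79% and 5.32%. CACCTG, the E-box that SNAIL and ZEB proteins bind, was in 15.3% against 18.6% and 18.5%, and CCAAT of NFY in 21.2% against 24.4% and 23.7%. TTGCGCAA of C/EBP was rare in every group, in 2 regions or 0.0490% here against 0.131% and 0.117%. Its difference from constitutive promoters was within counting error (-0.0824 points, -0.141 to 0.0516). ACATGTC, one arm of a p53 or p63 site, was in 2.13% against 1.5% and 1.73%. All were searched on both strands, base composition differs between the groups, and a match is a string of letters and not a bound site. Against distal regions of the same pattern, CAGACA did not differ beyond counting error (difference -1.16 points, -2.61 to 0.318), nor did the palindrome (0.0487 points, -0.192 to 0.359). TEAD letters did not either (-0.719 points, -1.45 to 0.0694). RUNX letters were rarer here than in distal regions (-1.26 points, -2.11 to -0.348), as were TATAAA letters (-2.38 points, -3.39 to -1.31). Against all merged regions, TEAD (-0.105 points), RUNX (-0.0193 points) and TATAAA letters (0.338 points) differed within counting error. CAGACA and the palindrome were more frequent here than in all merged regions, which had 18.5% and 0.302%.

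The nearest TSS belonged to a protein-coding gene for 2363 regions, or 57.9% (56.4 to 59.4), against 73.9% of constitutive promoters. It belonged to a lncRNA gene for 1026 regions (25.1% against 17.2%), to a pseudogene for 426 (10.4% against 4.91%) and to a small RNA gene for 219 (5.37% against 3.19%). Differences from constitutive promoters were -16.0 points (95% CI -17.6 to -14.4) for protein-coding genes and 7.91 points (6.54 to 9.33) for lncRNA genes. Seen from the gene, 7.74% of the 30547 promoter regions of protein-coding genes followed the pattern, against 12.4% of those of lncRNA genes, 13.7% of those of small RNA genes and 15.9% of those of pseudogenes. Distal regions of the same pattern went further the same way, with 42.6% nearest to a protein-coding gene and 4195 of the 14005 nearest to a lncRNA gene. By chromosome, the share of promoter regions ran from 5.54% on chromosome 19 to 11.5% on X.

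For protein-coding genes the start was mostly an alternative one. The nearest TSS was the main TSS in 581 of 2363 regions, or 24.6% (22.9 to 26.4), against 56.9% in constitutive promoters, a difference of -32.3 points (-34.1 to -30.4). The region contained the main TSS in 131, or 5.54%, against 47.4%. The rule leaves out regions that touch a solvent peak, and 1371 of the 2016 protein-coding genes had one within 500 bp of the main TSS. It therefore favours the direction of both differences. These genes also had a median of 9 annotated starts, and the share for regions placed at random was not measured. For lncRNA genes, 69.1% of regions were nearest to the main TSS, against 72.4% (difference -3.33 points, -6.45 to -0.329), and 123 of 1026 contained it, a difference of -14.9 points from constitutive promoters. Pseudogenes and small RNA genes have few annotated starts, and their nearest TSS was the main one in 94.4% and 100%.

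Many of these regions belonged to genes already accessible at another start. Of the 1782 regions at an alternative TSS of a protein-coding gene, 1344, or 75.4% (73.4 to 77.4), belonged to a gene whose main TSS had a solvent peak within 500 bp. Of the 581 regions at the main TSS of a protein-coding gene, 278, or 47.8% (43.8 to 51.9), did. Of the 709 regions at the main TSS of a lncRNA gene, 145, or 20.5% (17.6 to 23.6), did. For regions at a main TSS, that start is the region's own nearest one and not another, so the rule against touching a solvent peak bears on it. The share of all protein-coding genes with a solvent peak within 500 bp of the main TSS was not measured, so the 75.4% has no background value here. Over all 4080 regions, the nearest TSS itself had a solvent peak within 500 bp in 22.3% and within 3 kb in 41.5%, and the region had one within 3 kb in 42.5%, against 26.1% of distal regions of the same pattern. The median distance from a region to the nearest solvent peak was 4402 bp. Because the rule leaves out regions that touch a solvent peak, the comparison of these values with constitutive promoters (74.4% within 500 bp) is fixed in direction. The 4080 regions were nearest to 3632 genes, and 1244 of these genes (34.3%) had no solvent peak within 3 kb of any annotated start. This held for 289 of 2016 protein-coding genes (14.3%), 458 of 956 lncRNA genes (47.9%) and 316 of 404 pseudogenes (78.2%). Over all genes nearest to a promoter region the shares were 4.70%, 19.1% and 34.9%, and 12.4% in all. The rule sets the direction of this difference, and the classes differ in their number of annotated starts, with medians of 9, 2 and 1 per gene.

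The 12 strongest regions over the main TSS of a protein-coding gene, ranked by AUC at 72 h, mixed epidermal, immune, mesenchymal and muscle genes. AUC values have no replicates and follow in the order 6, 24 and 72 h.

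MAP3K7CL, a gene named for its likeness to the C-terminal part of the TGFβ-activated kinase TAK1, had AUC values of 745, 1820 and 1817 over its main TSS (chr21:29130177-29130713). The nearest solvent peak was 14602 bp from this region, but another start of the gene had one on it. SPINK6, an epidermal inhibitor of kallikrein proteases, had 608, 1229 and 1701 (chr5:148202556-148203093). PODNL1, a small leucine-rich matrix protein, had 551, 1126 and 1107 (chr19:13938187-13939007). In these genes the AUC was higher at 24 h than at 6 h by 1.01 to 1.29 on the log2 scale, and in SPINK6 it was higher again at 72 h.

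PTPN22, a phosphatase of lymphocyte receptor signalling, had 470, 902 and 1052. IL23A, the p19 subunit of interleukin 23, had 382, 670 and 815, and its window held AP-1, RUNX, E-box and TATAAA letters. SH2D1B, an adaptor of natural killer cells, had 270, 770 and 735. All 3 are genes of immune cells, and another start of IL23A had a solvent peak on it. Epidermal genes of the differentiation cluster on chromosome 1 were also present. CRCT1 had 402, 782 and 848, and LCE3A had 619, 760 and 749.

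FAP had 702, 554 and 800 (chr2:162243327-162243667) and was, of the 12 regions, the one that was weaker at 24 h than at 6 h. A solvent peak lay 360 bp from it, so its neighbourhood was not closed in solvent. MYOZ2, which binds calcineurin at the sarcomere, had 371, 768 and 743, and no solvent peak lay within 22138 bp. LENEP, a lens epithelial gene, had 542, 775 and 814. USP54, of the ubiquitin-specific protease family, had 466, 858 and 762 and a solvent peak 221 bp away. All 12 had a higher AUC at 72 h than at 6 h, by 0.19 (FAP) to 1.48 (SPINK6) on the log2 scale. They were ranked by AUC at 72 h, which favours this direction, and 66.8% of all 4080 regions had it.

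**Figure D3:**
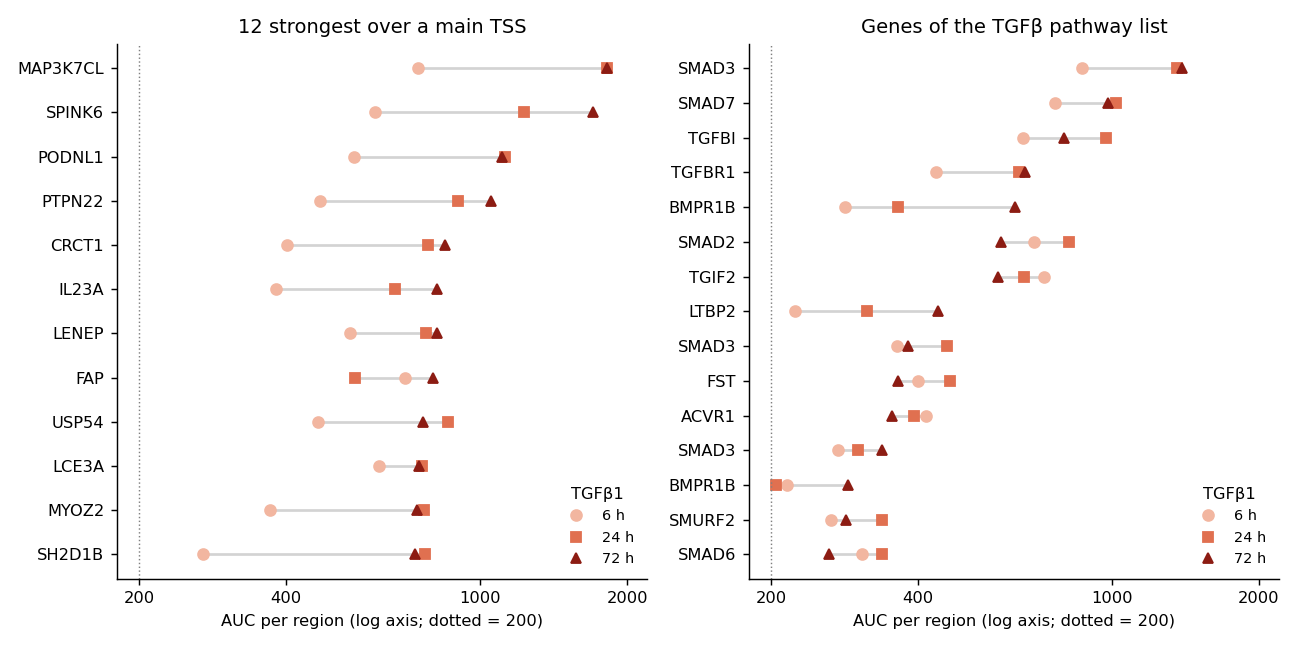
AUC per region (log axis, dotted line at the limit of 200) at 6 h (circle), 24 h (square) and 72 h (triangle) of TGFβ1, with no replicates and hence no error bars. Left, the 12 strongest regions over the main TSS of a protein-coding gene, from 735 (SH2D1B) to 1817 (MAP3K7CL) at 72 h; right, the 15 regions of the TGFβ pathway list, from 263 (SMAD6) to 1391 (SMAD3). On the left every triangle lies right of its circle, which ranking by AUC at 72 h favours (66.8% over all 4080 regions).

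Among lncRNA genes, the strongest named region over a main TSS was at HECW2-AS1, with 1075, 2250 and 2265 (chr2:196259950-196260563). It neighbours HECW2, a ubiquitin ligase gene whose 3 regions had 747, 1499 and 1415, then 617, 1195 and 1436, then 366, 420 and 618. A set of 4 unnamed lncRNA genes had AUC values of 1651 to 2769 at 72 h over their main TSS. HAS2-AS1, antisense to the gene of a hyaluronan synthase, had 3 regions, of which the one over the main TSS had 606, 1335 and 1075 and the strongest had 492, 1131 and 1353. The solvent peak nearest to its main TSS was 23386 bp away, and another of its regions lay 822 bp from one.

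Of the 10 regions of largest AUC at 72 h that are described here, 1 contained a TSS, that of an unnamed lncRNA gene with 1336, 2224 and 2769. VTRNA2-1, a vault-related small RNA, had 2297, 6122 and 9564 in a region 5522 bp wide that ended 1968 bp downstream of the TSS. SHISAL2A had 4219, 5646 and 4748, 2926 bp inside the transcript. RAB11B-AS1 had 2543, 3525 and 4675. RGS3 had 2583, 3862 and 4136, 1567 bp upstream of an alternative TSS, with the SMAD palindrome. GKN1, a secreted gastric protein, had 950, 2164 and 3027, 2364 bp upstream of its main TSS, and no solvent peak within 34720 bp. FSIP1 had 1683, 2205 and 3148, LINC00994 had 1567, 2425 and 2644, and CROCC had 1895, 2202 and 2384. An unnamed pseudogene on chromosome 12 had 1017, 2199 and 2306. Width adds to the AUC, and 20 of the 4080 regions were wider than 1000 bp, where the median was 278 bp.

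The course over time is a description, since the rule asks for a peak in all 3 TGFβ1 lists and none in solvent. At 6, 24 and 72 h the median AUC was 331, 434 and 400, with quartiles of 263 and 440, 323 and 607, and 284 and 606. In constitutive promoters the medians were 1811, 1783 and 1658. The AUC was highest at 24 h in 1898 regions (46.5%), rose at both steps in 1268 (31.1%), was lowest at 24 h in 472 (11.6%) and fell at both steps in 442 (10.8%). In constitutive promoters the last course was the most frequent, with 50.7%. AUC values were not scaled between lists, so a shift of all peaks of a list enters each ratio.

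The median log2 ratio of AUC at 72 h over 6 h was 0.26 (95% CI 0.24 to 0.28), against -0.18 in constitutive promoters and 0.41 in distal regions of the same pattern. The ratio of 24 h over 6 h had a median of 0.37 and that of 72 h over 24 h one of -0.07, so most of the gain after 6 h had come by 24 h. From 6 to 72 h, 568 regions rose by 2-fold or more and 50 fell by as much, or 13.9% and 1.23%. Among the 36048 promoter regions that held peaks at each of the 3 times, these regions included, the shares were 1.90% and 1.63%. From 24 to 72 h, 45 rose and 72 fell by 2-fold or more, or 1.10% and 1.76%, where the background was 0.227% and 0.824%. The rule asks for an AUC of 200 or more in each TGFβ1 list, so a region under 400 at 6 h cannot fall by 2-fold. This held for 2772 of the 4080 regions, or 67.9%, against 1278 of the 31968 constitutive promoters. Likewise, the 2041 regions under 400 at 72 h cannot have risen by 2-fold from 6 h. The limit thus bears on both counts, and on falls in more regions. The excess of rises over falls is therefore partly set by the rule, and how large that part is was not tested.

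**Figure D4:**
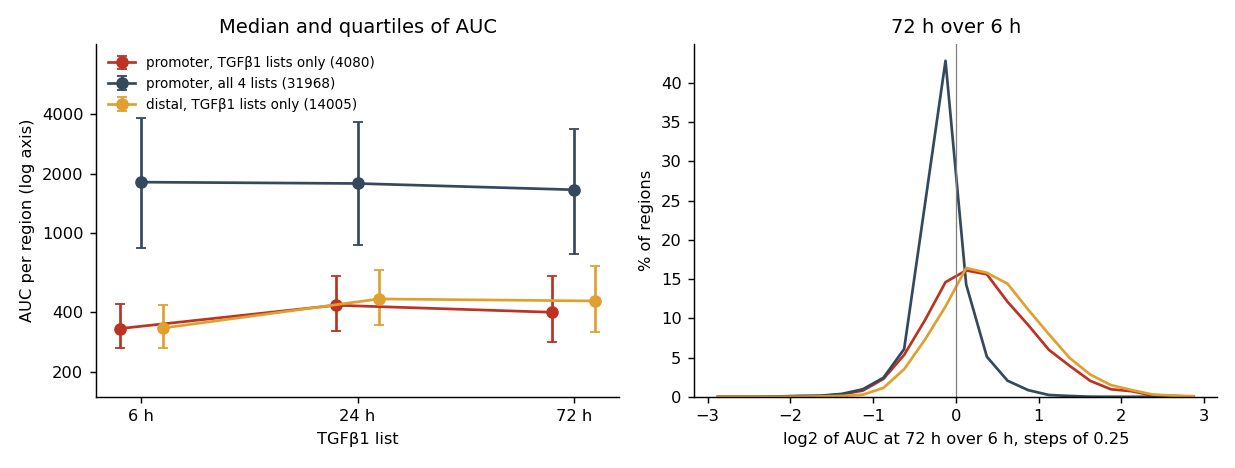
Left, median AUC per region (log axis) with quartiles as bars in the 3 TGFβ1 lists; right, distribution of the log2 ratio of AUC at 72 h over 6 h in steps of 0.25, the end steps holding all values beyond them. Red, promoter regions with peaks in the TGFβ1 lists only; blue, constitutive promoters; orange, distal regions of the same pattern. The red medians are 331, 434 and 400, and the red distribution is centred at 0.26 where the blue one is centred at -0.18.

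By distance, regions that contain a TSS had median AUC values of 345, 439 and 401, and regions more than 1000 bp away had 330, 438 and 414. The AP-1 share was 26.2% over a TSS, 34.6% at 1 to 1000 bp and 39.3% beyond. The SP/KLF share ran the other way, at 11.5%, 4.24% and 2.16%. By gene class, the median log2 ratio of 72 h over 6 h was 0.20 for protein-coding genes, 0.33 for lncRNA genes and 0.40 for pseudogenes, and AP-1 was found in 32.4%, 38.7% and 44.4%.

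The extremes of change were taken among regions with an AUC of 400 or more in at least 1 list. Of the 5 largest rises from 6 to 72 h, HK1 (hexokinase 1) had 205, 949 and 1237 at an alternative TSS. KSR1 had 390, 2119 and 2253, and TMIGD3, an immunoglobulin-domain gene, 219, 1200 and 1258. The other two lay at an unnamed lncRNA gene (340, 1501 and 2136) and at the pseudogene MTND4P7 (299, 881 and 1860). HK1, KSR1, MTND4P7 and the lncRNA region held the AP-1 site, whereas TMIGD3 did not. The 5 largest falls were at RBM47 (778, 285 and 215), IRX2 (833, 607 and 255), TDP2 (624, 706 and 205), RTN4R (629, 478 and 219) and SLC22A18 (848, 559 and 298). RBM47 is an RNA-binding protein of epithelial cells and IRX2 a homeobox factor. All 5 genes that fell had a solvent peak on the main TSS. These 10 regions were chosen for their ratios, which are given as a description.

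Of all genes that were nearest to a promoter region, 3632 of 23844, or 15.2%, had 1 or more of the 4080 regions, and among protein-coding genes 2016 of 14480, or 13.9%. Among protein-coding genes, the share rose strongly with the number of promoter regions a gene had. It was 3.73% in protein-coding genes with 1 promoter region, 14.5% with 2, 23.4% with 3, 33.7% with 4 to 5 and 70.2% with 9 or more. The number of promoter regions of a gene includes any of the regions described here, so part of this rise follows from the count itself. Counts for gene lists are read beside it with that limit.

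In the list of the TGFβ pathway, 12 of 38 genes with a promoter region (31.6%) had one of the regions, and a gene of the list had a median of 3.5 promoter regions, against 2 over all protein-coding genes. SMAD3, the receptor-activated SMAD of the TGFβ branch, had 3 regions out of 14 promoter regions, all at alternative starts. The strongest had 868, 1360 and 1391 (chr15:67178501-67179014), a second one had 362, 458 and 382 with an AP-1 site, and the third, over an alternative TSS, had 274, 301 and 338. SMAD7, an inhibitory SMAD that TGFβ itself induces, had 765, 1017 and 979 (chr18:48928819-48929165) at an alternative TSS, 5674 bp from the nearest solvent peak, and the main TSS had a solvent peak 396 bp away. SMAD6, the other inhibitory SMAD, had 308, 337 and 263. SMAD2 had 691, 817 and 593, in a region 45593 bp from any solvent peak, while its main TSS had one on it.

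Of the receptors, TGFBR1, the type I TGFβ receptor, had 435, 645 and 662 in a region 615 bp upstream of an alternative TSS. ACVR1 had 416, 392 and 354. BMPR1B, a type I BMP receptor, had 284, 364 and 632 in one region and 216, 205 and 287 in the other. TGFBI, a matrix protein named for its induction by TGFβ, had 658, 973 and 797, 1321 bp upstream of a main TSS that had a solvent peak on it. TGIF2 had 725, 660 and 585 over its main TSS, 1017 bp from the nearest solvent peak. SMURF2, a ubiquitin ligase that targets SMADs and receptors, had 266, 337 and 285. LTBP2, a latent TGFβ-binding protein of the matrix, had 224, 314 and 439, and FST, which binds activins, had 400, 466 and 364. In 11 of the 12 genes a solvent peak lay within 500 bp of the main TSS, against 1371 of all 2016 protein-coding genes with a region. An AUC at 72 h above that at 6 h was found in 10 of the 15 regions, close to the 66.8% over all 4080.

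LDLRAD4, a membrane protein known to restrain TGFβ signalling, was not on that list and is named because it had 4 regions of 5 promoter regions. Their AUC values were 235, 430 and 279, then 204, 439 and 315, then 511, 989 and 951, then 363, 817 and 942. The third held the SMAD palindrome and CAGACA, and the fourth, over an alternative TSS, held AP-1. All 4 regions were highest at 24 h except the last.

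In the list of extracellular matrix genes, 13 of 47 genes (27.7%) had a region. The strongest were subunits of basement-membrane laminin-332. LAMA3 had 326, 800 and 1357 (chr18:23835025-23835488) and, over an alternative TSS, 320, 588 and 679. LAMB3 had 385, 1043 and 1354 (chr1:209647986-209648753), 2581 bp downstream of an alternative TSS, with the palindrome and CAGACA. TNC, the matrix glycoprotein tenascin C, had 346, 893 and 1092 in a region 2995 bp upstream of its main TSS. THBS2 had 209, 590 and 642 over an alternative TSS, 9781 bp from the nearest solvent peak, and another start had a solvent peak on it. MMP9 had 598, 642 and 782 (chr20:46008194-46008609) and no solvent peak within 5570 bp. COL4A2, a basement-membrane collagen, had 780, 919 and 826, FBN1 (fibrillin 1) 257, 397 and 383, and ELN (elastin) 446, 506 and 533. Not all rose: COL17A1 went from 402 and 337 to 250, and a COL12A1 region from 335 and 274 to 241. An AUC at 72 h above that at 6 h was found in 14 of the 17 regions of this list.

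In the list of the actin cytoskeleton and adhesion, 14 of 43 genes (32.6%) had a region, with a median of 4 promoter regions per gene. PRR5L, which interacts with the kinase complex mTORC2, had 289, 592 and 773 and 311, 717 and 615, both over alternative starts. PALLD had 483, 764 and 886. CDH2, N-cadherin, had 367, 457 and 638 at an alternative TSS whose nearest solvent peak was 32868 bp away, while the main TSS had one on it. Integrin genes gave ITGAV 344, 458 and 698, ITGA5 275, 359 and 413, ITGB5 448, 497 and 545, ITGA1 347, 362 and 375, and the stronger ITGB1 region 391, 511 and 550. ITGB4, a subunit of the laminin receptor of hemidesmosomes, went the other way, with 654, 699 and 332. MYL9, a myosin light chain, went from 368 and 408 to 202, and PDLIM7 from 1164 and 1332 to 681.

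Of epithelial genes, 13 of 48 (27.1%) had a region. CDH1, E-cadherin, had 891, 1199 and 1354 (chr16:68802173-68802646), 433 bp inside an alternative transcript start and 1615 bp from a solvent peak. KRT7 had 4 regions, with 72 h values of 227, 882, 533 and 207. KRT8 had 288, 390 and 667, PKP1 (plakophilin 1, of desmosomes) 393, 586 and 710, and KRT5 561, 532 and 531. In 11 of the 13 genes the main TSS had a solvent peak within 500 bp (1371 of 2016 over all protein-coding genes with a region). The share of genes with a region was close to that of the matrix list (27.7%), and the difference was not tested.

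Of transcription factors of EMT and AP-1, 5 of 38 genes (13.2%) had a region. ZEB1 had 204, 486 and 475 with an AP-1 site, 2729 bp upstream of an alternative TSS. TCF4 had 432, 797 and 1048 (chr18:55510039-55510314), 32324 bp from the nearest solvent peak, while its main TSS had one on it. PRRX1, a homeobox factor of mesenchyme, had 3 regions, and these were all of its promoter regions. They had 337, 294 and 203, then 227, 454 and 353, then 639, 808 and 391, and no solvent peak lay within 12009 bp of any of them. GATA3, a luminal factor, had 532, 265 and 255, and ATF3 320, 325 and 397.

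Lists of other lineages were also represented. Of neuronal and synaptic genes with a promoter region, 11 of 26 (42.3%) had a region, with a median of 2.5 promoter regions per gene. GRIA1, a glutamate receptor subunit, had 646, 736 and 679. GAD1, which makes GABA, had 236, 345 and 626. Of 17 regions none had a nearest TSS with a solvent peak within 500 bp, against 666 of 2363 over all protein-coding genes. At the level of the gene, 1 of the 11 had no solvent peak within 3 kb of any of its starts. Of immune genes 3 of 18 had a region (PTPRC, IL7R and CSF1R) and of muscle genes 3 of 14 (MYL2, RYR2 and DMD). PTPRC, whose region had 515, 799 and 824, was also one of the markers that had no solvent peak within 1 kb of the main TSS. The lists count genes only and no set was tested against others.

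In all, 339 genes had 2 regions, 44 had 3 and 7 had 4. The 7 were ABR, FGD6, KRT7, LDLRAD4, LINC00880, LRRC28 and MAP3K7CL. FGD6, an exchange factor for the GTPase CDC42, had 72 h values of 784, 883, 375 and 415, and the second of these regions held the SMAD palindrome. MAP3K7CL had 242, 964, 647 and 1817, the last over the main TSS described above. LINC00880 had 548, 808, 471 and 1244. Among genes with 3 regions, WNT5A, a secreted WNT ligand, had 236, 544 and 616, then 243, 471 and 471, then 329, 213 and 409. DAB2, an endocytic adaptor, had 72 h values of 234, 787 and 604 and 4 promoter regions in all. The main TSS of WNT5A and DAB2 had a solvent peak on it.

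The values at the limits of the rule were as follows. Just inside 3 kb, a region of ACTN1 (α-actinin 1) lay 2999 bp from a TSS with 493, 719 and 536, and regions of RPS9 and RNF13 lay at 2998 bp with 72 h values of 264 and 295. Just outside, regions nearest to HMX2, ANKS1B and CDH1 lay at 3001 bp with 247, 489 and 295. The smallest AUC in any TGFβ1 list was 200 at SRC, TNS3 and SRRD, the authors' limit. Promoter regions left out for a solvent peak of AUC 200 were at LINC01620, PAFAH1B2P1 and MAP2, and had 497, 344 and 394 at 72 h, within the range of those kept.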

How the data were processed

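ATAC-seq reads of 8 libraries (4 conditions, 2 replicates each) were processed by the authors. The submitters' processing notes name Trimmomatic 0.38, Bowtie2 2.4.5, Picard, SAMtools 1.4.1 and Genrich 0.5, and the build is GRCh38. Peaks were called on both replicates together and filtered on AUC and adjusted p. The study's methods also state that blacklisted regions were removed. As signal, the authors deposited the AUC of each peak. It was not scaled between lists and is 200 or more throughout. The deposited −log10 q values describe summits. The condition of a list came from its name. Solvent is at time 0 per the labels but at 72 h in one of the study's legends.

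The lists held 86209 (solvent), 107656 (6 h), 118433 (24 h) and 116720 (72 h) peaks. They were merged where they shared 1 bp or more, and AUC was summed per region and list. Distances were taken to every transcript start of GENCODE 44. A region went to the gene of its nearest TSS, and ties went to protein-coding genes first. Sequence came from the GRCh38 FASTA. The 12 motifs were matched exactly. The versions used were 3.11.15 for Python, 1.17.1 for scipy, 2.3.3 for pandas and 2.4.6 for numpy. The merging and motif steps were tested on simulated data.

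The regions and gene lists were chosen with earlier results of these data known. Named were the 12 regions of largest AUC at 72 h, the 12 and 6 largest over the main TSS of a protein-coding and of a lncRNA gene, regions of genes on the lists, examples of genes with 3 or more regions, the 5 largest and 5 smallest ratios, and regions at the limits. Genes without a symbol are given by type. For 2 regions and 2 listed genes, values are not reported here. Alternatives covered the promoter window, TSS set, minimum AUC, list length, overlap, windows and AUC measure. Splits of constitutive promoters by AUC and by TSS content were chosen after seeing the data.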

Additional observations from a re-analysis of the deposited data

How the results depend on the processing

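The number of regions was 4080. It was 1908 within 1 kb of a TSS, 633 with a TSS inside, 1700 with TSSs of protein-coding transcripts, 2461 with 1 canonical TSS per gene, 967 with an AUC of 400 or more in the TGFβ1 lists, and 1041 with lists of equal length. It stayed within 1.5 times with merging over 250 bp (3665) and a reciprocal overlap of both peaks by at least 50% (5097). With an AUC of 400 or more in all 4 lists it was 3803. That rule also drops solvent peaks under 400 and so admits regions with a deposited solvent peak, where 967 were found with the solvent list whole. Its count near 4080 is therefore not stability of the same regions. In that order of TGFβ1 lists at AUC 400, all lists at AUC 400 and equal length, the share whose TSS had a solvent peak was 20.7%, 20.2% and 19.3%, the median GC 46.3%, 48.3% and 46.3%, and the median log2 ratio of 72 h over 6 h 0.42, 0.14 and 0.49. With the TGFβ1 lists at AUC 400 and with equal length, the protein-coding share was 54.5% and 54.8%, the lncRNA share 27.6% and 27.1%, and the AP-1 share 41.8% and 43.7%. Within 1 kb of a TSS, protein-coding and lncRNA shares were 60.5% and 26.7%. The main-TSS share was 51.9% within 500 bp and 56.8% within 3 kb of the region. The solvent-open share was 17.8% at 100 bp and 41.5% at 3 kb. With 250 bp to either side of the summit, median GC was 45.3% and the AP-1 share 39.6%, which was also the share over whole regions. The ratio was 0.15 per covered base and 0.37 when centred on regions in all 4 lists.

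Under each of the AUC and list-length rules the regions kept a lower GC, fewer TSSs and a higher AP-1 share than constitutive promoters. AP-1 was in 41.8%, 34.6% and 43.7% against 21.0%, 19.8% and 21.0%. The number of regions rests on the peak limits, since a region just under an AUC of 200 in solvent counts as not open there, and the depth reached in each list, which moves the AUC, is not known here. No replicate could be left out and no paired analysis was possible because the lists pool both replicates. The cause of the changes was not tested.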
